A study of Mus musculus with 5 samples.

Results

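Stefin-high neutrophils of mouse bone marrow are barcodes whose transcriptome carried the stefin A genes Stfa2l1 and Gm5483 but little of the messenger RNA that marks earlier neutrophils. They were chosen from barcodes with at least 500 unique molecular identifiers (UMIs, 1 per captured RNA molecule) and at most 10% mitochondrial UMIs, by raw counts of at least 3 UMIs of Stfa2l1 and Gm5483 together, fewer than 2 of Mmp8, fewer than 5 of Ltf, fewer than 3 of Fcnb and 0 of Csf1r. The rule kept 973 of 29679 barcodes. In order of day, from day 0 to day 12, they numbered 220, 156, 166, 203 and 228, from 6259, 4870, 6041, 6944 and 5565 barcodes in all. The 5 genes given with these cells, Gm5483, Stfa2l1, Cxcl2, Asprv1 and Clec4d, were picked from these same data, so they are described by their levels, and the fitted values given for Cxcl2, Asprv1 and Clec4d are no independent evidence.

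Neutrophils mature in the marrow from granulocyte precursors and make their granule proteins in sequence, the primary granule proteases first, then the secondary granule proteins such as lactoferrin (Ltf), and the tertiary granule proteins such as the gelatinase Mmp9 later. Mmp8 encodes the collagenase of the secondary granules. Mature neutrophils are held in the marrow by the chemokine receptor Cxcr4 and leave it under signals that include the receptors Cxcr2 and Csf3r. The stefin A proteins are small cytosolic inhibitors of cysteine cathepsins, encoded in the mouse by a cluster of closely related genes. Cxcl2, Ccl3, Ccl4 and Il1b are cytokines that activated neutrophils secrete, and their transcripts are short-lived.

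Marrow came from femurs and tibias of 5 C57BL/6J mice, 8 weeks of age and not irradiated, and each had received 1000 BCR-ABL1 pre-B acute lymphoblastic leukemia cells through the tail vein. The mouse of day 0 was killed immediately after transplantation, so the control also carried the transplanted cells, and the others were killed on days 3, 6, 9 and 12. Flushed marrow and collagenase-digested bone were pooled, red cells were lysed, and the cells were frozen before droplet capture. With 1 mouse for each day, day, mouse and processing cannot be told apart, no p-value between days exists, and every interval below covers counting error only.

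Stfa2l1 and Gm5483 lie on chromosome 16 of mm10 (GRCm38), on the plus strand, at chr16:36156811-36161953 and chr16:36184212-36188111, and each has 3 exons. Their last 285 coding bases are shown because the rule adds both genes and because they are alike at 82.8% of positions, with capitals at the 49 positions that differ.
Stfa2l1: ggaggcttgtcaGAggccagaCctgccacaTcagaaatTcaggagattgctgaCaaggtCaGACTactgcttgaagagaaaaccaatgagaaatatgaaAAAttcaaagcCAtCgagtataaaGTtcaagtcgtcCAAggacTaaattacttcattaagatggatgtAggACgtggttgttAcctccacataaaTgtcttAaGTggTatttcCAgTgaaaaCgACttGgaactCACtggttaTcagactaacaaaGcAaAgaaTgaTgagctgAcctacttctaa
Gm5483: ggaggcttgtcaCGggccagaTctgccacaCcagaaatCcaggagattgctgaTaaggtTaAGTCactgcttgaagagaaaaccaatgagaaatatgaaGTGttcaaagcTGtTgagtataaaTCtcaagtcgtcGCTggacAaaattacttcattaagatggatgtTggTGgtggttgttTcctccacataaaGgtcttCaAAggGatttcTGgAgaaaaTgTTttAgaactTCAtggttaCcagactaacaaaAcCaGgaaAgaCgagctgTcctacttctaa
The longest stretch that both transcripts share without a difference is 34 bases. Reads on a stretch that gene copies share can be split between genes or dropped. Only Stfa2l1 and Gm5483 were aligned here, and how far this affects the values of single stefin A genes was not tested.

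The start regions of Stfa2l1 and of the chemokine gene Cxcl2 are shown because Stfa2l1 chose the cells and Cxcl2 differed severalfold between days in them. Each is the 220 bases from 250 to 31 before the start in RefSeq (GRCm38.p6, plus strand), at chr16:36156561-36156780 and chr5:90903649-90903868, with capitals at matched motif letters.
Stfa2l1: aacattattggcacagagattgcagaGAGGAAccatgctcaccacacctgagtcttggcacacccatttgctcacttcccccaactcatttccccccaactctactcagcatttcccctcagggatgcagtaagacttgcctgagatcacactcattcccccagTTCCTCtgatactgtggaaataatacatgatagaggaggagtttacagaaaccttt
Cxcl2: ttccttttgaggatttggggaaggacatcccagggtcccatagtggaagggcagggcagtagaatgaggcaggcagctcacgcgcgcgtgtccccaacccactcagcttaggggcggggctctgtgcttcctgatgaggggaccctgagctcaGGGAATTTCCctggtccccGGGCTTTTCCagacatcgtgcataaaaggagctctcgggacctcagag
The Cxcl2 window held 2 matches to the NF-kB letters GGG, 2 bases of any kind and TTTCC, which 1.17% of 32851 promoter windows hold. The Stfa2l1 window held 2 matches to the PU.1 letters GAGGAA, which 20.4% of windows hold. Both strands were searched, also for TTGCNNAA (C/EBP) and TGANTCA (AP-1), which 8.78% and 6.12% of windows hold and neither of these windows does. The windows of Il1b, Ccl3, Asprv1 and Ifitm1 held none of the 4 motifs, those of Clec4d and Wfdc17 held 1 PU.1 match each, and Gm5483 and Ccl4 were not analysed here for motifs.

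The cells carried a neutrophil transcriptome. S100a8 and S100a9, the subunits of calprotectin, gave 17.6% and 11.5% of their UMIs, and Retnlg, a resistin-like protein of neutrophils, gave 3.57%. Summed over 8 neutrophil markers the level was 303747 to 396139 CPM (counts scaled to a total of 1000000 UMIs) by day, against 15384 to 24921 CPM in the B class, which are barcodes with at least 3 UMIs of Cd79a outside the neutrophil classes. Of the marker lists of other cells, only some genes were at 0 in all 973 cells. These were Csf1r (by the rule), C1qb and C1qc of macrophages, Prg3, Epx and Il5ra of eosinophils, Ms4a2 of mast cells and basophils, Alas2 and Car1 of erythroid cells, Ppbp, Itga2b and Gp9 of megakaryocytes and Xcr1 of dendritic cells. The other genes of the lists were detected. Their sums by day were 132 to 1109 CPM for dendritic, 102 to 196 for monocyte, 7.23 to 242 for erythroid and 14.5 to 38.1 for eosinophil markers. Of the 973, 38 (3.91%, and 0.877% to 8.37% by day) held at least 3 UMIs of the 8 B cell markers, 14 of dendritic, 11 of monocyte, 9 of T and NK, 5 of progenitor and 4 of erythroid markers. The basophil list reached 3 UMIs in 115 cells, but 97.2% of its UMIs came from Hdc, the histidine decarboxylase that makes histamine, and without Hdc no cell reached 3.

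Most of the cells were shallow. Their median UMIs were 1661, 1783, 1536.5, 1685 and 1672 by day, and their median genes 529, 601, 568, 551 and 513.5. The libraries held 33425695 to 43554233 UMIs, and the mitochondrial share of the cells had medians of 0.299% to 0.737%. 11 cells held over 5000 UMIs, and 1 of them was far deeper than the rest. This day 0 barcode held 44494 UMIs, 10.3% of all UMIs of the day 0 cells, with 49 UMIs of Cd79a, 53 of Vpreb3 and 34 of Ebf1, which mark B lineage cells, beside 158 of S100a8 and 4 of the stefin genes. Some of the others also held B lineage genes or Cd74. A day 0 cell with 6187 UMIs held 16 of Vpreb3 and 19 of Ebf1, and a day 6 cell with 9354 held 29 of Igkc. At day 9 a cell with 7229 UMIs held 174 of Cd74, and another with 6360 held 16 of Vpreb3. Cells with 11179 UMIs at day 0, 5433 at day 3, and 6639 and 5401 at day 12 held none of these genes. Several differences between days are also given without cells above 5000 UMIs. No barcode sequence was chosen in more than 1 library, and 42 of the 973 (4.32%) were also kept as another cell in another library, against 997 of all 29679 kept barcodes (3.36%).

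The values that chose the cells varied widely among them. Stefin UMIs per cell had medians of 8.5, 8.5, 7, 9 and 9 by day and reached 104, while 51, 36, 48, 44 and 46 cells held just 3 or 4. Both genes were detected in 53.2%, 50.6%, 51.8%, 45.3% and 47.8% of the cells. Stfa2l1 stood at 2083, 2642, 2301, 2237 and 2614 CPM from day 0 to day 12, and Gm5483 at 5020, 4410, 4193, 4615 and 4258 CPM. No day stood far from the others for either gene, and the limit of 3 UMIs in each cell sets part of these levels.

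Barcodes on either side of the limits of the rule differed. The 225 cells with 3 or 4 stefin UMIs held 1203 CPM of Il1b and 27996 CPM of Retnlg, against 261 and 5807 CPM in the 976 barcodes just outside with 1 or 2 stefin UMIs, and S100a8 stood at 140697 against 30727 CPM. Near the Mmp8 limit, the 448 cells with 1 Mmp8 UMI held 1031 CPM of Il1b and 38619 CPM of Retnlg. The 561 Mmp8-high barcodes with 2 or 3 Mmp8 UMIs that also held at least 3 stefin UMIs had 557 and 46926 CPM. The barcodes just below the stefin limit thus held fewer neutrophil transcripts, whereas those just above the Mmp8 limit held more of Retnlg. Barcodes with 1 or 2 stefin UMIs were not required to be neutrophils. They held 383 CPM of the B cell gene Cd79a, against 154 CPM in the cells with 3 or 4.

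Other genes of the stefin A cluster were present at lower levels. Stfa1 stood at 473, 259.8, 308, 610.2 and 451 CPM by day and was detected in 8.43% to 10.9% of the cells, whereas Gm4758, an unprocessed pseudogene, had 0 UMIs on every day, which allows up to 8.56 to 12.8 CPM. Stfa2 ranged from 41.6 to 94.0 CPM, Stfa3 from 10.1 to 133 CPM, BC100530 from 139 to 260.4 CPM and Gm5416 from 24.5 to 111 CPM. The single other member, BC117090, had 4 UMIs at day 0, 1 at day 3 and 0 later.

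The share of these cells was highest at day 0. They made up 8.37% (95% exact binomial interval 7.34 to 9.49) of the barcodes in 4 neutrophil classes at day 0, and 5.90%, 5.84%, 5.68% and 6.31% at days 3, 6, 9 and 12, with upper bounds of 6.87, 6.76, 6.49 and 7.15. The other classes, cut in the same way, were Mmp8-high cells (at least 2 Mmp8 UMIs, with the limits on Ltf, Fcnb and Csf1r kept), Ltf-high cells (at least 5 Ltf UMIs) and Fcnb-high cells (at least 3 Fcnb UMIs, a precursor marker). They had no limit on stefin UMIs, so Mmp8-high cells include barcodes that also reached the stefin limit. The interval of day 0 lay above those of the 4 later days, which overlapped one another. With every barcode first thinned to 1000 UMIs the shares were 15.7%, 10.5%, 9.70%, 10.6% and 12.2%, and with at least 5 stefin UMIs 6.56%, 4.60%, 4.22%, 4.50% and 5.10%, so day 0 stayed highest. With at least 5 stefin UMIs, however, the intervals of days 0 and 12 overlapped, with a lower bound of 5.63 and an upper bound of 5.87. As a share of all kept barcodes the order differed, at 3.51%, 3.20%, 2.75%, 2.92% and 4.10%, with day 12 highest.

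**Figure D1:**
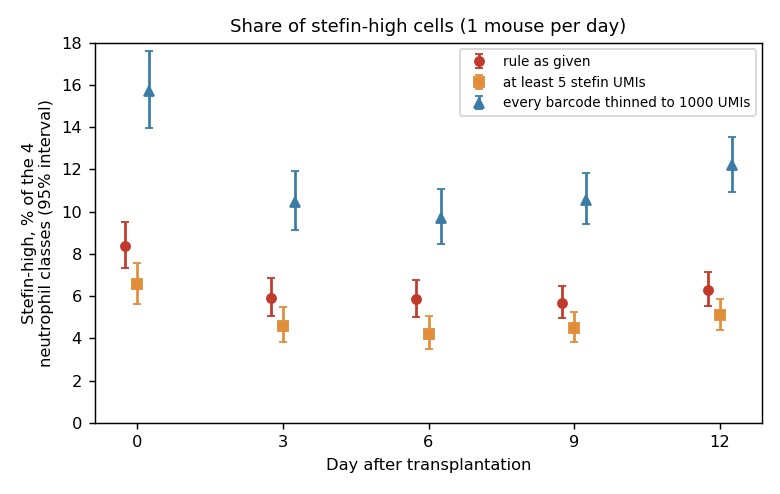
Stefin-high cells as a percentage of the 4 neutrophil classes against day after transplantation, for the rule as given (red), with at least 5 stefin UMIs (orange) and with every barcode thinned to 1000 UMIs (blue). Points are 1 mouse each and bars are 95% exact binomial intervals; day 0 is highest under each of the 3 rules.

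The chemokine Cxcl2, which attracts neutrophils through Cxcr2, differed most between days among the genes given with these cells. It stood at 2589 CPM (95% exact Poisson interval 2439 to 2745) at day 0, 513 (435 to 601) at day 3, 835 (733 to 947) at day 6, 624 (546 to 710) at day 9 and 2307 (2163 to 2458) at day 12. Days 0 and 12 were thus high and days 3, 6 and 9 low, with no overlap of intervals between the high and the low days. The share of cells with a Cxcl2 UMI at 1000 UMIs per cell followed, at 47.8%, 14.3%, 24.7%, 25% and 48.8%, against 5.59%, 1.57%, 2.90%, 2.33% and 4.90% in the B class, which should lack the gene. Without thinning it was 52.7%, 20.5%, 27.7%, 31.0% and 57.5%.

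The same days were high in Mmp8-high cells, where Cxcl2 stood at 1220, 109, 211, 186 and 1151 CPM. Ltf-high cells had 113, 36.6, 43.5, 44.7 and 213 CPM, and the B class 67.0, 9.48, 34.4, 22.8 and 43.4 CPM. Stefin-high cells were above Mmp8-high cells of the same mouse in all 5 libraries, by 2.12-, 4.71-, 3.95-, 3.36- and 2.0-fold.

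Il1b, the precursor of interleukin 1 beta, differed less between days. Its level was 1510, 1363, 1289, 999.8 and 1068 CPM in stefin-high cells and 494, 235, 301, 223 and 299.5 CPM in Mmp8-high cells, so each stefin-high value lay above every Mmp8-high value. A UMI of Il1b was found in 55.7%, 56.4%, 60.0%, 51.7% and 45.5% of cells thinned to 1000 UMIs, against at most 4.90% in the B class.

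The macrophage inflammatory proteins Ccl3 and Ccl4 were also highest at day 0. Ccl3 stood at 905, 277, 294.5, 321 and 610 CPM, high at days 0 and 12 as Cxcl2 was. Ccl4 stood at 728, 206, 249.5, 62.7 and 86.8 CPM and did not return at day 12, when Mmp8-high cells held 130.4 CPM. At day 0 the Ccl4 UMIs came from 36 of 220 cells and 20.1% of them from 1 cell, so this level rests on few cells.

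Clec4d and Asprv1 varied less. Clec4d, a C-type lectin receptor that binds mycobacterial glycolipid, stood at 981, 1147, 1040.0, 836 and 933 CPM, above the 371 to 650.0 CPM of Mmp8-high cells on every day. Asprv1, an aspartic protease known from skin, stood at 408, 334, 180.2, 264 and 236 CPM, against 256, 116, 114, 123 and 175 CPM in Mmp8-high cells, and here the ranges of the classes overlapped.

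**Figure D2:**
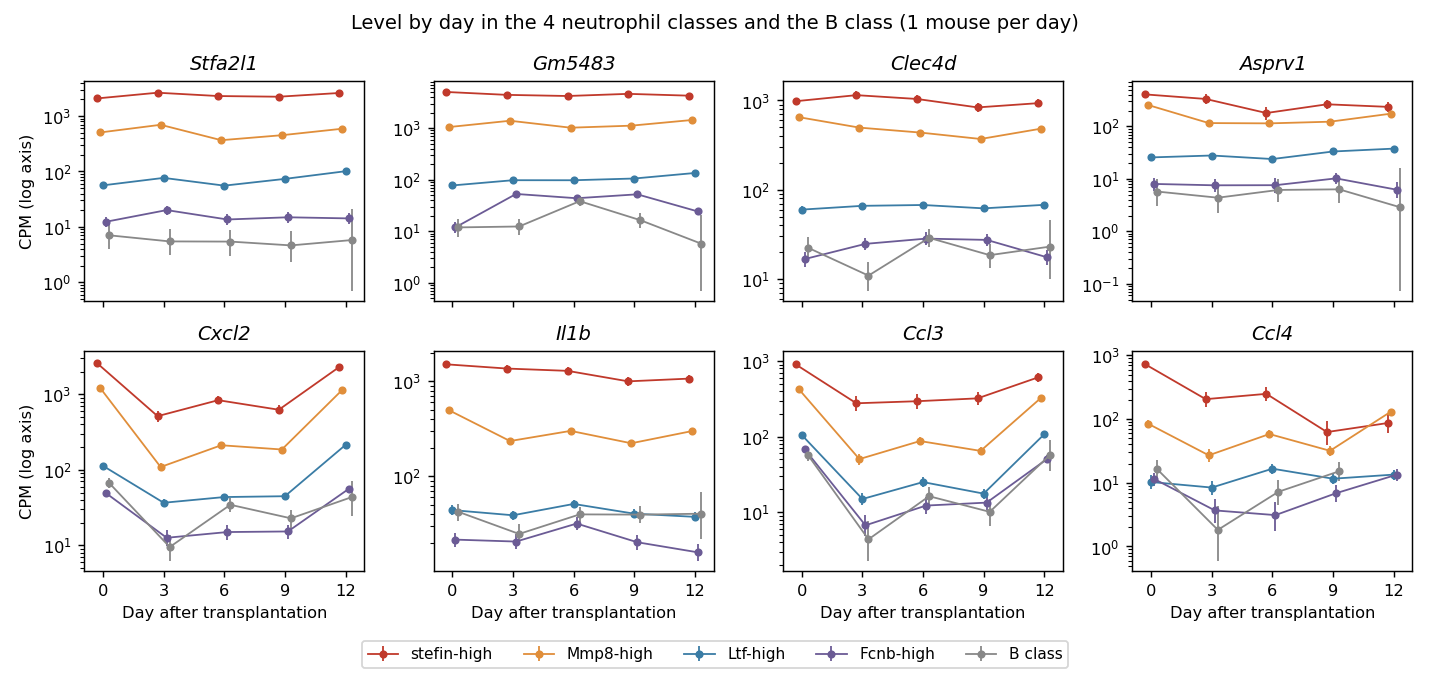
CPM on a log axis against day for 8 genes, in stefin-high (red), Mmp8-high (orange), Ltf-high (blue) and Fcnb-high (purple) neutrophils and in the B class (grey); points are 1 mouse each and bars are 95% exact Poisson intervals of the summed UMIs. Stfa2l1 and Gm5483 chose the stefin-high cells, so their red points follow in part from the rule, while Cxcl2 and Ccl3 are high at days 0 and 12 and Il1b lies highest in stefin-high cells throughout.

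Cytokine transcripts were spread unevenly over the cells. At 1000 UMIs per cell, 32.3%, 7.86%, 16.7%, 15% and 28.7% of the cells held both Cxcl2 and Il1b, and 28.9%, 37.1%, 32.0%, 38.3% and 34.4% held neither, by day. Cells with at least 5 UMIs of 6 interferon-stimulated genes numbered 6, 8, 6, 2 and 6, or 2.73%, 5.13%, 3.61%, 0.985% and 2.63%. In Mmp8-high cells the same count gave 2.02%, 4.82%, 2.30%, 3.41% and 2.23%, so interferon-high cells were a small share of both classes. The limit of 5 UMIs is not scaled to depth, and Mmp8-high cells were deeper, so the shares of the 2 classes are not directly comparable.

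Stefin-high cells were then compared with Mmp8-high cells of the same 5 mice, the nearest class, on UMIs summed over each class in each library. edgeR's quasi-likelihood test with Benjamini-Hochberg adjustment and the library as a block called 503 of 5520 genes higher (9.11%) and 402 lower (7.28%) at an adjusted p under 0.05. The genes of the rule and the stefin A family were left out. Because Mmp8-high cells were deeper, with median UMIs of 2562 to 3000, the comparison was repeated with cells of 1000 to 2500 UMIs in both classes, where the medians were 1521 to 1749 and 1912.5 to 1984. This matched comparison called 162 of 2562 genes higher (6.32%) and 144 lower (5.62%). Without barcodes above 5000 UMIs in either class, 315 of 4357 genes were higher (7.23%) and 283 lower (6.50%). With every cell of at least 1000 UMIs thinned to 1000, 225 of 2703 genes were higher (8.32%) and 254 lower (9.40%). Values below are log2 differences over all cells, followed by those at matched depth. Counts of genes in a list are to be read beside these shares of all genes.

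Cytokine genes were higher as a group. Of 9 tested cytokine and chemokine genes 8 were higher and 0 lower, with a median of 1.03, and at matched depth 5 were higher and 0 lower of 9, with a median of 0.61, beside medians of -0.0079 and 0.0036 over all genes. Cxcl2, given with these cells, is counted among them. Il1b was higher by 2.08 ± 0.12 (SE, n = 5 mice, edgeR adjusted p = 3.7e-07), and by 1.18 ± 0.07 at matched depth. This was the largest increase among called genes with at least 50 CPM on average and the same direction in all 5 mice. Ccl3 was higher by 1.66 ± 0.20 (adjusted p = 7.25e-05, edgeR), and by 1.13 at matched depth, and it was higher in 5 of 5 mice although the ranges over days overlapped. Ccl4 was higher by 1.85 ± 0.40 in the fit but in 4 of 5 mice only, since day 12 went the other way. Ccl6 was higher by 0.90 and 0.28. Osm, which encodes oncostatin M, gave 0.42 and 0.19 and passed in neither comparison, and Tnf, Il1rn and Tnfsf14 passed over all cells but not at matched depth.

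The 12 largest increases had a range of roles. Wfdc17, a small secreted protein with a protease inhibitor fold, stood at 1445, 1630, 2155, 1937 and 2122 CPM against 499, 271, 457, 655 and 695 CPM, higher by 1.93 ± 0.14 (edgeR adjusted p = 2.43e-06). Irg1, the enzyme that makes itaconate, stood at 114, 155, 232, 185 and 133 CPM against 48.4, 37.3, 48.3, 29.4 and 57.0 CPM, higher by 1.92 ± 0.21 (edgeR adjusted p = 3.33e-05). For both genes the lowest stefin-high library lay above the highest Mmp8-high library. Pla2g7, which degrades platelet-activating factor, was higher by 1.48 and at matched depth by 0.91. Ptgs2, the inducible cyclooxygenase, was higher by 1.48 and 0.77. Fgl2 (1.90 and 1.25), Ifitm1 (1.76 and 0.98), St3gal6 (1.48 and 1.03), Sirpb1c (1.47 and 1.05) and Marcks (1.46 and 0.80) complete the 12 with Il1b, Ccl3 and Cxcl2 (1.61 and 0.93), and all 12 passed in both comparisons, Cxcl2 counted although it was picked for these cells. Sirpb1c has close paralogs, so its own value is uncertain.

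**Figure D3:**
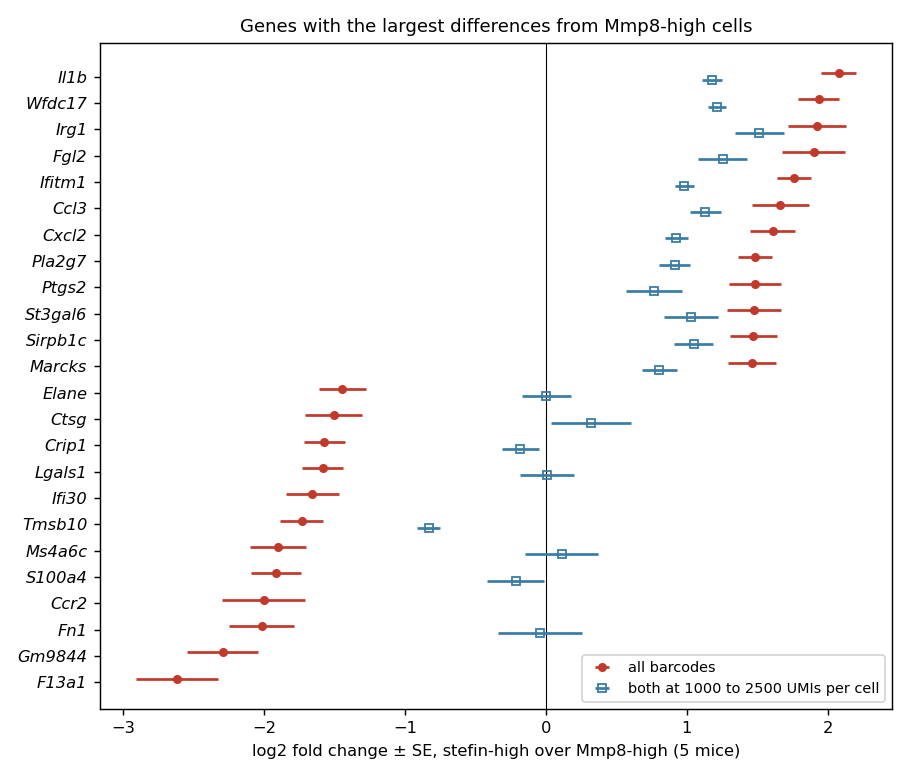
log2 fold change of stefin-high over Mmp8-high cells with its SE (5 mice) for the 12 strongest increases and the 12 strongest decreases, over all cells (filled red) and at 1000 to 2500 UMIs per cell (open blue; 4 genes were not tested there). Genes shown were called, with at least 50 CPM on average and the same direction in all 5 mice. All 12 increases remain above 0 at matched depth, while of the 8 decreases that could be tested there only Tmsb10 is called.

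Receptors for chemoattractants and cytokines were the next group. Over all cells 11 of 16 were higher and 0 lower, with a median of 0.68, and at matched depth 6 were higher and 1 lower, with a median of 0.23. Csf3r, the receptor of granulocyte colony-stimulating factor, stood at 598.5, 891, 839, 697 and 622 CPM against 305, 300.5, 307, 269 and 283 CPM, higher by 1.33 ± 0.11 (edgeR adjusted p = 4.95e-06) and by 0.56 at matched depth, with no overlap. Ccrl2, an atypical receptor that presents chemerin, had a difference of 2.12 and 1.70. Il1r2, a decoy receptor of interleukin 1, was higher by 1.01 and 0.63, Ptafr, the receptor of platelet-activating factor, by 1.36 and 0.98, and Tnfrsf1b by 0.97 and 0.86. Cxcr2 (0.76 and 0.19), Cxcr4 (0.68 and 0.12) and C5ar1 (0.69 and 0.18) were called over all cells and not at matched depth. Fpr2, a formyl peptide receptor, gave 0.08 over all cells and, called, -0.46 at matched depth.

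Innate pattern receptors depended on depth. Of 20 C-type lectins and innate receptors 10 were higher and 1 lower over all cells, against 9.11% and 7.28% of all genes. At matched depth 2 of 18 were higher, Clec4d and Clec4e, and 2 lower, Mrgpra2a and Mrgpra2b, which are close paralogs. Of all genes 6.32% were higher and 5.62% lower there, so counts of 2 of 18 lie near those shares. Clec4d is counted in the list although it was picked for these cells. Clec4e gave 0.70 and 0.30.

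Secondary granule genes went the other way. The limit on Mmp8, itself a granule gene, separates these classes, so calls of granule genes that vary with it may follow in part from the rule. Of 8 secondary granule genes 0 were higher and 4 lower, with a median of -0.43, and at matched depth 5 were lower, with a median of -0.43. Cd177, a surface glycoprotein of secondary granules, stood at 83.5, 118, 125, 155 and 171 CPM against 255, 266, 282, 271.5 and 342 CPM, a difference of -1.10 ± 0.13 (edgeR adjusted p = 6.27e-05) and -1.26 at matched depth, with no overlap. Lcn2, the siderophore-binding lipocalin, gave -0.64 and -0.81 and Ngp -0.59 and -0.75, both called in both comparisons. Camp, the cathelicidin precursor, gave -0.22 (edgeR adjusted p = 0.066) and, called, -0.53. Pglyrp1, a peptidoglycan-binding protein, gave -0.07 and, called, -0.33.

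Several tertiary granule and calprotectin genes were lower once depth was limited. Retnlg stood at 32620, 30260, 30750, 34760 and 46950 CPM in stefin-high cells and gave -0.22 (edgeR adjusted p = 0.064) over all cells and -0.60 at matched depth. S100a8 gave -0.01 and -0.35, S100a9 -0.02 and -0.33, and the gelatinase Mmp9 0.04 and -0.41. Each of these 4 genes was called at matched depth and not over all cells, and without barcodes above 5000 UMIs they were also called, at -0.71, -0.50, -0.51 and -0.44. Ly6g, the surface protein that defines neutrophils in the mouse, gave -0.55 and -0.69, the integrin gene Itgb2l -0.83 and -1.27, and Cybb, the catalytic subunit of the NADPH oxidase, -0.98 and -1.07, each called in both comparisons. The other 5 NADPH oxidase genes were called in neither.

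The list of protease inhibitors and proteases was mixed. Over all cells 5 of 10 genes of the list were higher and 4 lower, against 9.11% and 7.28% of all genes. At matched depth 6 were higher and 2 lower, against 6.32% and 5.62%. Slpi, the secretory leukocyte protease inhibitor, was higher by 0.75 and 0.35, and Cstb, which encodes stefin B, by 0.69 and 0.78. Serpinb1a, the inhibitor of neutrophil elastase, gave -0.96 and -0.81, and Wfdc21 gave -0.36 and -0.79, all called. Asprv1, given with these cells, is counted in the list and gave 0.91 and 0.55.

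Immediate-early genes, which are transcribed within minutes of a stimulus, were higher as a group. Of 24 tested 19 were higher and 1 lower, with a median of 0.66, and at matched depth 12 of 21 were higher and 0 lower, with a median of 0.27. Junb stood at 1835, 1319, 1320.0, 1071 and 1138 CPM against 935, 595, 688, 482 and 606 CPM, higher by 1.06 ± 0.09 (edgeR adjusted p = 4.95e-06) and by 0.56 at matched depth, with no overlap. Nfkbia, the inhibitor of NF-kB that NF-kB itself induces, was higher by 1.25 and 0.94, Socs3, a brake on cytokine signalling, by 1.35 and 1.20, and Ier3 by 1.02 and 0.65. The AP-1 gene Fos was higher by 0.53 and 0.21, while Dusp1 and Fosb passed over all cells but not at matched depth.

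The other lists are to be read beside shares of all genes of 9.11% higher and 7.28% lower, or 6.32% and 5.62% at matched depth. Of interferon-stimulated genes 9 of 24 were higher and 1 lower, and at matched depth 6 of 17 were higher and 2 lower, led by Ifitm1 and Isg15 (1.03 and 0.77), while Ifitm6 was lower (-0.92 and -0.99). The ferritin chains Fth1 (0.71 and 0.30) and Ftl1 (0.68 and 0.32), which store iron, were higher in both comparisons, as were the transcription factor gene Cebpb (1.05 and 0.40) and the noncoding RNA Neat1 (0.87 and 0.25). Of 13 survival and death genes 3 were higher over all cells and 0 of 6 at matched depth. Ribosomal protein genes were lower in 67 of 85 cases and higher in 2 over all cells, with a median of -0.57, but at matched depth 4 of 83 were higher and 4 lower, with a median of -0.05. Primary granule genes turned similarly, from a median of -1.21, with 4 of 7 lower and 1 higher, to 0.20, with 0 of 5 lower and Srgn, a proteoglycan, still higher. Of 19 proliferation genes 5 were lower over all cells, and 0 of 6 were called in either direction at matched depth.

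**Figure D4:**
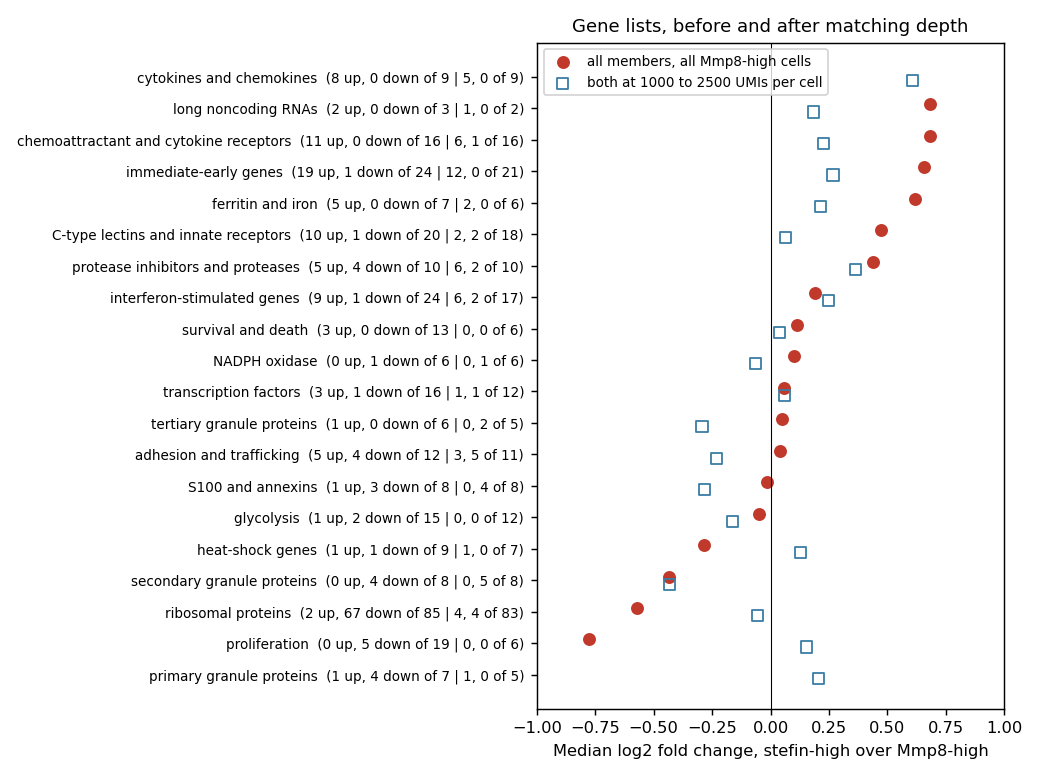
Median log2 fold change of stefin-high over Mmp8-high cells for each of 20 gene lists, over all cells (filled red) and at 1000 to 2500 UMIs per cell (open blue); labels give the genes called higher and lower of those tested, before and after matching depth. Cytokines stay highest at 0.61, secondary granule genes keep -0.43, and ribosomal and primary granule genes lie near or above 0 once depth is matched. The all-cell medians of cytokines (1.03) and primary granule genes (-1.21) lie beyond the ends of the axis and are not shown.

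Under the limits used for the 12 largest increases, the 12 largest decreases over all cells depended on how depth was handled. F13a1 (-2.62), Gm9844 (-2.29), Fn1 (-2.02), Ccr2 (-2.0), S100a4 (-1.92), Ms4a6c (-1.90), Tmsb10 (-1.73), Ifi30 (-1.66), Lgals1 (-1.59), Crip1 (-1.57), Ctsg (-1.51) and Elane (-1.45) were called over all cells. Of these, Tmsb10, a thymosin, was the only gene still called at matched depth, at -0.83, and F13a1, Gm9844, Ccr2 and Ifi30 were too low to be tested there. Thinned to 1000 UMIs per cell, 10 of the 12 were called, among them F13a1 (-2.31), S100a4 (-1.25) and Crip1 (-1.36), while Ctsg (-0.38) and Elane (-0.26) were not. Without barcodes above 5000 UMIs 6 of the 12 were called, with F13a1 at -1.18 and S100a4 at -0.59. F13a1, Fn1, Ccr2 and Ms4a6c belong to the list of monocyte markers, of which 5 of 6 were lower over all cells and 0 of 2 at matched depth. At least 3 UMIs of monocyte markers, a limit not scaled to depth, were found in 1.13% of stefin-high and 7.32% of the deeper Mmp8-high cells. The part of such barcodes in these decreases was not tested.

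Against Ltf-high cells, whose granule genes mark an earlier stage, edgeR called 1262 of 8074 genes higher (15.6%) and 1087 lower (13.5%) in stefin-high cells. All 10 tested cytokine genes were higher, with a median of 3.58, as were 23 of 24 immediate-early genes, with a median of 1.54, and 14 of 16 receptors, with 1 lower. Under the same limits the 8 largest increases were Wfdc17 (4.81 ± 0.15), Sirpb1c (4.79), Sirpb1b (4.76), Il1b (4.74), Pla2g7 (4.73), Ifitm1 (4.48), Amica1 (4.38), an adhesion molecule of leukocytes, and Gm5150 (4.32). Sirpb1b, Sirpb1c and Gm5150 belong to one family of similar genes, so reads may be split among them. Secondary granule genes were lower in 6 of 8 cases and higher in 0, with a median of -2.48. The limit on Ltf, itself a secondary granule gene, separates these classes. Lower levels and p-values of granule genes that vary with Ltf may thus follow in part from the rule. Camp stood at 2777, 3594, 3916, 3999 and 4516 CPM against 56980, 41680, 41710, 46500 and 49270 CPM, a difference of -3.78 ± 0.21 (edgeR adjusted p = 2.37e-12). Orm1, an acute-phase glycoprotein, gave -3.84 ± 0.25, Ngp -3.58, Chil3, a chitinase-like protein, -3.32, Serpinb1a -3.02, Lta4h, which makes leukotriene B4, -2.93, the granule gene activator Cebpe -2.65 and Stk39 -2.43. Tertiary granule genes were higher in 4 of 6 cases, Retnlg by 1.52. Of 19 proliferation genes 16 were lower. Ltf-high cells were deeper, with median UMIs of 4198.5 to 5141, and this comparison was not made at matched depth other than by thinning.

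Between days the same cells were compared with those of day 0 by size alone, as the log2 ratio of CPM plus 10, for genes with at least 50 UMIs over both days. All 4 comparisons share the day 0 mouse. Past 2-fold, 15 of 1273 genes were higher (1.18%) and 87 lower (6.83%) at day 3, 6 of 1269 higher (0.473%) and 82 lower (6.46%) at day 6, 20 of 1377 higher (1.45%) and 69 lower (5.01%) at day 9, and 10 of 1414 higher (0.707%) and 145 lower (10.3%) at day 12. Most of the genes counted as lower were no longer counted without the deep day 0 barcode. With that barcode alone left out, 27 of 1159 (2.33%), 20 of 1147 (1.74%), 31 of 1265 (2.45%) and 14 of 1297 (1.08%) were lower, and 19 (1.64%), 13 (1.13%), 26 (2.06%) and 6 (0.463%) higher. Without cells above 5000 UMIs, 26 of 1097 (2.37%), 19 of 1078 (1.76%), 32 of 1197 (2.67%) and 18 of 1221 (1.47%) were lower, and 15 (1.37%), 14 (1.30%), 21 (1.75%) and 6 (0.491%) higher.

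Most cytokine genes lay below day 0. Of the 7 with enough UMIs, 5, 5, 6 and 7 lay below at days 3, 6, 9 and 12, with and without cells above 5000 UMIs. Over all cells their median was -1.49, -1.27, -0.99 and -0.41, and 4, 4, 3 and 1 were lower past 2-fold, against 6.83%, 6.46%, 5.01% and 10.3% of all genes, beside a median over all genes between -0.14 and 0.02. Without cells above 5000 UMIs 4, 4, 4 and 1 were lower past 2-fold, with Osm added at day 9. The shares of all genes there were 2.37%, 1.76%, 2.67% and 1.47%. Cxcl2 gave -2.31, -1.62, -2.04 and -0.17, or -2.45, -1.77, -2.21 and -0.30 without the deep cells. Ccl3 gave -1.67, -1.59 and -1.46 at days 3, 6 and 9, and Ccl4 -1.77, -1.51, -3.35 and -2.93 at the 4 days. Osm stood at 264, 87.7, 104, 128 and 258 CPM, low at days 3, 6 and 9 and at day 12 near its day 0 level.

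Immediate-early genes also lay mostly below day 0. Of 24 listed, 19 had enough UMIs, and 17, 17, 18 and 19 of these lay below day 0, with medians of -0.81, -0.76, -0.77 and -0.34, or -0.93, -0.85, -0.93 and -0.51 without the deep cells. Past 2-fold, 4, 4, 6 and 2 of 19 were lower and none was higher, so the count at day 12 was near the 10.3% of all genes. Without the deep cells 8, 7, 7 and 2 were lower, against 2.37%, 1.76%, 2.67% and 1.47% of all genes. Among those that then passed 2-fold were Fos at day 3 and Fosb and Dusp1 at day 6. Fos stood at 2503, 1350, 1476, 1389 and 2025 CPM by day, Dusp1 at 2431, 1056, 1247, 1071 and 2107 CPM and Fosb at 645, 256, 333, 226 and 600.3 CPM. Each of these 3 genes was high at days 0 and 12 and lower between. Atf3, an early stress-response factor, differed from that pattern, with -1.55, -1.60, -1.46 and -1.28.

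**Figure D5:**
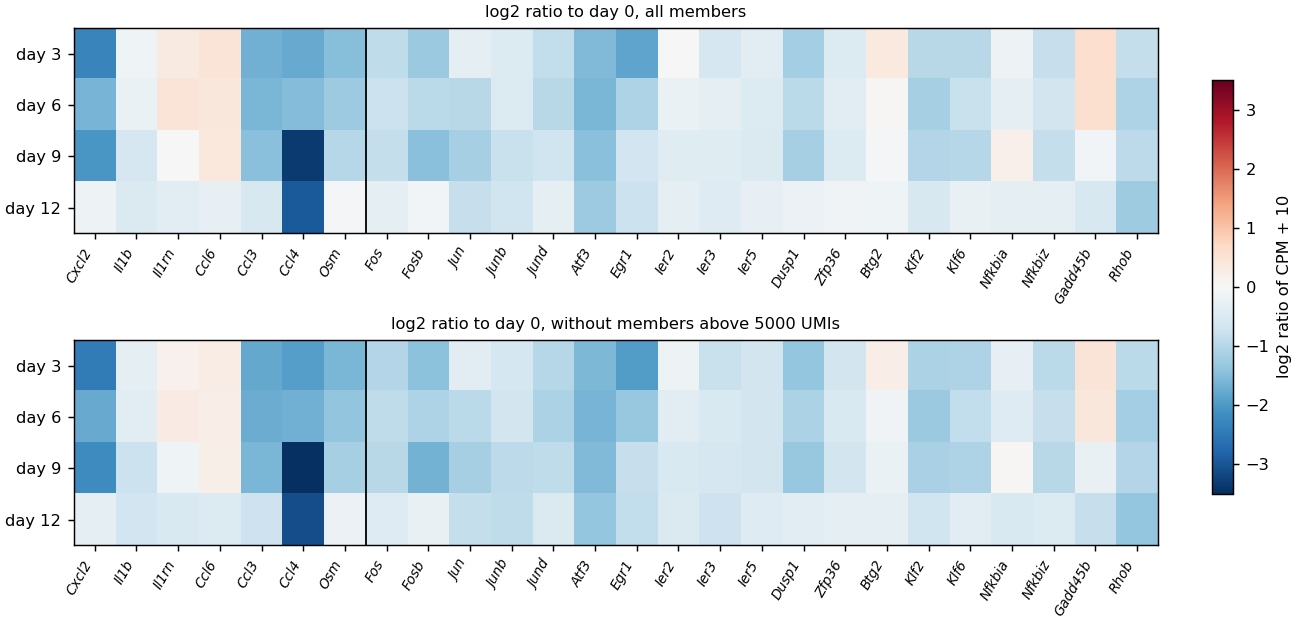
log2 ratio of CPM plus 10 to day 0 in stefin-high cells for 7 cytokine genes (left of the line) and 19 immediate-early genes, by day, over all cells (top) and without cells above 5000 UMIs (bottom); blue is lower than day 0 and red higher. Cxcl2, Ccl3, Ccl4 and Osm are blue at days 3 to 9 in both panels, and the day 12 row is pale for most genes apart from Ccl4, Atf3 and Rhob.

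Other large decreases lay in the deep day 0 barcode. That barcode held 88.9% of the day 0 UMIs of Npm1, which gave -2.44, -1.83, -1.73 and -2.76. Without cells above 5000 UMIs Npm1 gave 1.22 at day 9 and had too few UMIs on the other days. The barcode also held 64.8% of the day 0 UMIs of Hmgb1, 63.9% of Rpl15, 71.4% of Ptma and 58.4% of Rpl4. Without the deep cells Hmgb1 gave -0.11 at day 6, where it had been -1.51, and Rpl15, Ptma and Rpl4 gave -0.86, -0.36 and -0.85 at day 12, where they had been -2.32, -2.06 and -1.95. Rpl22l1 at day 3 went from -1.68 to -1.03. For 82 ribosomal protein genes the median was -0.56, -0.51, -0.26 and -1.12 over all cells, and for 81 without the deep cells 0.17, 0.28, 0.50 and -0.37.

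Increases past 2-fold were few, and some rested on single cells. At day 3 the interferon-inducible Ifi27l2a stood at 1714 against 728 CPM (1.22), with UMIs in 83 of 156 cells, and Limd2 gave 1.09, or 0.99 without the deep cells. At day 6 the immunoglobulin light chain gene Igkc stood at 609.9 against 83.5 CPM (2.73), in 91 of 166 cells, and Mmp8-high cells of that library held 3746 CPM of it, so this transcript of plasma and B cells was high across classes there, and the part of free RNA was not tested. G0s2, an inhibitor of lipid breakdown, gave 1.41, with 27.4% of its UMIs in 1 cell. At day 9 Cd74 (2.61) had 75% of its UMIs in 1 cell and gave 0.52 without the deep cells, and Ccl5 (2.42) had 88.0% in 1 cell.

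The mitochondrial transcripts mt-Co3, mt-Atp6 and mt-Cytb gave 1.31, 1.30 and 1.30 at day 9, or 1.64, 1.94 and 1.93 without the deep cells, where the median mitochondrial share of the cells was also highest. At day 12 Ifitm6, a membrane protein of the interferon-induced family, stood at 1340 CPM against 510 CPM at day 0 (1.38), and at 628, 641 and 670 CPM between. It had UMIs in 171 of 228 cells. Fpr2 (1.10) and Ly6g (1.03) were also past 2-fold at day 12, but not without the deep cells (0.94 and 0.85). With library sizes scaled by TMM the median over all genes at day 12 moved from -0.14 to 0.07, and Cxcl2 then gave 0.05. Secondary granule genes had medians of 0.25, 0.51, 0.48 and 0.55 over the 4 days, with none of 8 past 2-fold.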

How the data were processed

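Droplet-based single-cell libraries (10x 3′ v2) were counted by the authors with Cell Ranger against mm10 and deposited as raw UMI counts without normalization, with empty droplets still in the tables. The 5 libraries held 33425695 to 43554233 counts, which limits single-cell values to counting precision. Members, gene lists and the named-gene rule (largest calls, at least 50 CPM on average, same direction in all 5 mice) were chosen with earlier results of these data known.

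Barcodes were gated on raw counts. Counts were summed per class and library and scaled to CPM. Classes were compared within mice with edgeR 4.0.16 in R 4.3.3 (TMM, filterByExpr, glmQLFit, glmQLFTest, library as block) and Benjamini-Hochberg adjustment. The replicate block is the mouse, since both sums of a library come from 1 animal. Days were compared by size, naming genes with at least 200 UMIs over both days. On simulated counts for stefin-high against Mmp8-high cells over 5683 genes, 77.0% of 100 genes changed 2-fold and 100% of 100 changed 4-fold were called, and 0.146% of unchanged genes. Both simulated classes had the Mmp8-high profile apart from the changed genes, with the same dispersion for all genes. Gating and depth per cell were not simulated, so these rates do not measure false calls in the real comparison. Scores from Scrublet (scanpy 1.11.5) gave no usable limit, since it marked almost no barcodes in 4 of 5 libraries, so no doublets were removed. Alternatives changed scaling, tool, filters, depth, stefin limit, pseudocount, doublets and libraries.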

Additional observations from a re-analysis of the deposited data

How the results depend on the processing

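As a share of neutrophils, the cells of each later day stayed below day 0 under each rule tried. With at least 5 stefin UMIs the shares were 6.56%, 4.60%, 4.22%, 4.50% and 5.10% by day, with barcodes thinned to 1000 UMIs 15.7%, 10.5%, 9.70%, 10.6% and 12.2%, and over all barcodes with at least 3% of UMIs from S100a8 and S100a9 (chosen after seeing the data) 6.48%, 4.76%, 4.45%, 4.48% and 5.11%. In the first and last of these the interval of day 0 overlapped that of day 12. The bounds were 5.63 against 5.87 and 5.67 against 5.79.

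Against Mmp8-high cells the counts of genes higher and lower, 503 and 402, became 162 and 144 at 1000 to 2500 UMIs and 315 and 283 without barcodes above 5000 UMIs, both of which tested fewer genes, 225 and 254 with cells thinned to 1000 UMIs, 310 and 684 with no low-count filter, and 741 lower with at least 5 stefin UMIs. Leaving out 1 library gave 287 to 603 higher and 254 to 672 lower, the fewest without day 6 (287 and 254), 315 and 261 without day 9, and 672 lower without day 0. Without days 0 and 12 (chosen after seeing the data) 624 were lower. With no replicate block 381 were higher and 248 lower, and Cxcl2 (adjusted p = 0.24) and Ccl3 (0.134) were no longer called by edgeR. At 1000 to 2500 UMIs the decreases of Ctsg (0.32), Elane (0.0030), Lgals1 (0.0046) and Ms4a6c (0.11) turned to small positive values, and without barcodes above 5000 UMIs those of Ctsg (0.33) and Elane (0.019). Against Ltf-high cells, 1262 and 1087 became 1246 and 1048 with no replicate block, 1724 lower with at least 5 stefin UMIs and 774 higher when thinned, and leaving out 1 library gave 1028 to 1340 higher and 778 to 1489 lower. The causes were not tested.

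Between days, lower counts at days 3, 6, 9 and 12 were 199, 178, 157 and 308 with at least 20 UMIs, 27, 24, 20 and 66 with at least 200, 16, 18, 21 and 12 when thinned, 32, 21, 34 and 30 with the mean of per-cell CPM, 25, 22, 32 and 11 with at least 5 stefin UMIs, 26, 19, 32 and 18 without cells above 5000 UMIs, and 27, 20, 31 and 14 without the deepest day 0 cell alone. Higher counts were 56, 57, 55 and 44 with at least 20 UMIs and 2, 2, 10 and 3 with at least 200. With a pseudocount of 1 CPM 25, 11 and 25 were higher at days 3, 6 and 12, with per-cell means 29 and 18 at days 3 and 6, and with TMM 33 at day 12. At days 6 and 12 the higher counts were 12 and 6 when thinned, 22 and 6 with at least 5 stefin UMIs, 14 and 6 without cells above 5000 UMIs, and 13 and 6 without the deepest day 0 cell.

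Of the comparisons of single named genes with an alternative, 1094 were labelled the same, 13 lost the edgeR call, 4 gained it and 6 turned. Another 9, all ratios between days, moved by more than a set log2 limit. Ratios between days carry no call, and small ratios that changed sign were labelled the same. An example is Cxcl2 at day 12, which went from -0.17 to 0.05 with TMM. Removing doublets called by Scrublet was not run, since its limit failed, and the 5% of barcodes with the highest scores were left out instead. Matched depth, the removal of deep barcodes or of the deepest one, TMM between days and leaving out days 0 and 12 were added after seeing the data. Depth limits rare transcripts: Gm4758, at 0 UMIs in these cells, may reach 8.56 to 12.8 CPM.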

Other observations

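Hdc, which makes histamine and is used as a basophil marker, was measured in these cells at 629, 509.5, 624, 496 and 513.5 CPM from day 0 to day 12, against 435, 296.5, 301, 232 and 382 CPM in Mmp8-high cells of the same mice. Each stefin-high value lay above every Mmp8-high value. The difference was 0.81 ± 0.12 (SE, n = 5 mice, edgeR's quasi-likelihood test, adjusted p = 0.000382) and 0.36 at matched depth (adjusted p = 0.000956, edgeR). Ms4a2, the beta chain of the high-affinity IgE receptor, was at 0 in all 973 cells.

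The ratio of Ccl4 in stefin-high to Mmp8-high cells was 8.61, 7.62, 4.28, 1.97 and 0.666 from day 0 to day 12, while that of Il1b was 3.06, 5.79, 4.28, 4.48 and 3.57. The difference between the 2 genes was not tested.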
